A study of Meleagris gallopavo with 3 samples.

Results

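The proteasome genes of cultured turkey satellite cells, the stem cells of skeletal muscle, were described over 3 RNA libraries. The members were the genes of the deposited expression table whose symbol begins with PSM, followed by a letter from A to G and a number, which are 35 of 23976 genes. One of them, PSMC3IP, shares only the name, since it encodes a recombination factor and no proteasome part, so the counts and medians below cover the other 34. These were 24 structural subunits, 3 genes of activators and PI31, and 7 assembly factors. All 34 had at least 5 CPM (counts per 1000000 exon reads of the library) in at least 1 library, the minimum set for a gene to be compared, and so did PSMC3IP.

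The cells came from breast muscle (Pectroralis thoracicus in the labels) of 1-day-old birds and were grown for 2 weeks before they were divided. The differentiated group was fused to myotubes as an adherent culture in DMEM with 4% horse serum, the suspended group was kept under rotation for 3 months in a flask with the medium of the undifferentiated cells, and the adherent undifferentiated group stayed on gelatin in McCoy's 5A with 15% chicken serum. The labels give no treatment for any group. RNA of 3 repeats of the experiment was pooled within each group by the authors, so each group is 1 library, there is no spread between replicates, and no p-value was computed. The 95% intervals below cover counting error only.

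The libraries are called Differentiating, Suspension and Adherent after the headings of their count columns. These headings are not used in 1 way in the deposited table. In the authors' column named for suspension against differentiation, 100% of 12207 genes carried the quotient of Adherent and Differentiating reads, within 0.02 on the log2 scale. In the column named for adherence against differentiation, 100% of 12154 genes carried the quotient of Suspension and Differentiating reads. Which heading belongs to which culture could therefore not be settled, and if Suspension and Adherent are exchanged, every direction between them turns and the comparisons with Differentiating change places. The Differentiating, Suspension and Adherent libraries held 22816125, 23844835 and 17444865 exon reads, so that 1 read is 0.0438, 0.0419 and 0.0573 CPM. The Adherent library also stood apart in markers of other cell types. All 3 endothelial markers in the table (PECAM1, CDH5 and TEK) summed to 3.11 CPM in Differentiating and 3.82 in Suspension, against 255 CPM in Adherent, and the 4 leukocyte markers to 9.95 and 12.3, against 106 CPM. The 6 myogenic markers summed to 3091 CPM in Differentiating, 7967 in Suspension and 7751 in Adherent, but they did not move together. PAX7, the satellite cell factor, had 1.10 CPM in Differentiating and 24.2 in Suspension, against 4.93 in Adherent, and DES and CHRNA1 were also highest in Suspension. MYF5 and MYOD1, factors of committed myoblasts, were highest in Adherent. MYF5 had 1.97 and 29.7 CPM, against 263, and MYOD1 had 93.8 and 768 CPM, against 1522. ACTA1, skeletal muscle actin, was also highest in Adherent, with 1756 and 1691 CPM, against 4739. Only 31.7%, 31.9% and 32.8% of the ACTA1 exon reads in Differentiating, Suspension and Adherent were unique to it. The 6 fibroblast markers summed to 58256 CPM in Differentiating and 17112 in Suspension, against 9131 in Adherent, sums carried by the collagens COL1A2 and COL3A1. All 6 were higher in Differentiating than in Adherent, whereas in Suspension over Adherent 3 were higher and 3 at least 2-fold lower, among them LUM, with 32.0 CPM in Suspension, against 440 CPM in Adherent. The part of these cells in the proteasome values was not tested, and in bulk RNA fewer cells of a type and less RNA per cell cannot be told apart.

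The 26S proteasome degrades proteins that carry ubiquitin chains. Its 20S core is a barrel of alpha and beta rings, and the beta ring holds the catalytic sites inside. The 19S cap binds the chains, removes them and feeds the protein into the core: its base holds a ring of ATPases with scaffold proteins, and its lid holds the deubiquitinase. Other activators can bind in place of the cap, and dedicated assembly factors hold the parts together until the particle is complete. In skeletal muscle the proteasome clears myofibrillar proteins marked by muscle ubiquitin ligases, and its subunit genes are known to be transcribed together under the factor NFE2L1.

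Proteasome genes were lower in the Adherent library than in both others. The 34 members summed to 4516 CPM in Differentiating and 5091 CPM in Suspension, against 3388 CPM in Adherent. Suspension held the highest level of 25 members, Differentiating of 6 and Adherent of 3, whereas Adherent held the lowest level of 26. Over all genes above the minimum, 38.8% were highest in Suspension, 22.7% in Differentiating and 38.5% in Adherent, and 42.2% were lowest in Adherent. Among the 24 structural subunits, 22 were highest in Suspension, 2 in Differentiating and none in Adherent. The order of the first 2 libraries depended on the scaling, since with TMM factors 13 of the 24 were higher in Differentiating than in Suspension.

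**Figure D1:**
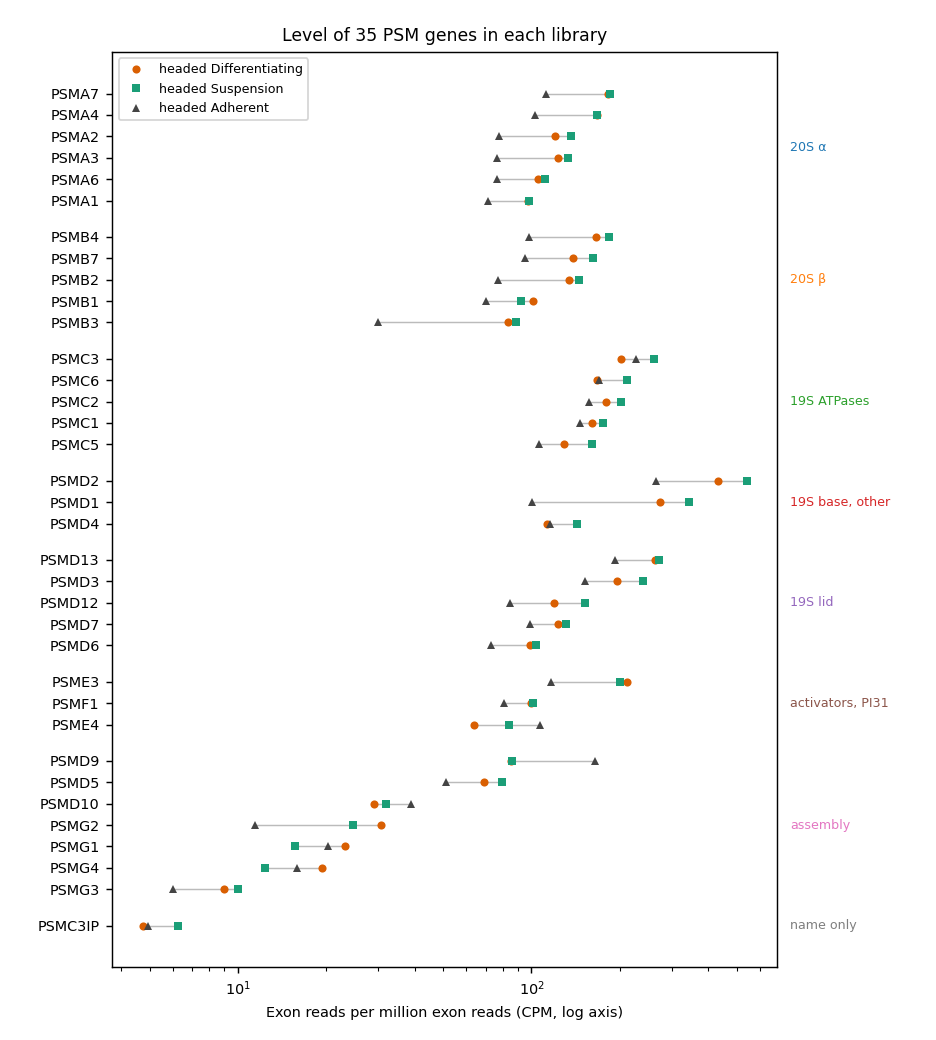
CPM (exon reads, log axis, not divided by gene length) of the 35 matching genes in the Differentiating (circles), Suspension (squares) and Adherent (triangles) libraries, grouped by role and joined by a grey line. The triangle is leftmost for 26 of the 34 proteasome genes, and PSMD9 is a gene for which it is far to the right, at 165 CPM.

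Most differences were below 2-fold. Of the 34, 28 had a ratio above 1 in Differentiating over Adherent, where 48.1% of all genes did, and 29 in Suspension over Adherent, where 55.6% did. The counting interval lay wholly above 1 for 27 members in Differentiating over Adherent and for 29 in Suspension over Adherent, beside 41.3% and 49.1% of all genes, and wholly below 1 for 4 and 5 members, beside 45.6% and 38.5%. PSMB3, PSMD1 and PSMG2 were at least 2-fold higher in Differentiating than in Adherent, as were 18.3% of 11022 genes. The same 3 and PSMD2 were at least 2-fold higher in Suspension than in Adherent, as were 21.6% of 11020 genes. None was at least 2-fold lower in either, where 22.7% and 20% of all genes were. At a limit of 1.5-fold, 11 members were higher and 2 lower in Differentiating over Adherent, beside 28.1% and 32.3% of all genes, and 17 were higher and 1 lower in Suspension over Adherent, beside 34.1% and 27.1%. The median log2 ratio of the members was 0.45 in Differentiating over Adherent and 0.58 in Suspension over Adherent, and the medians of all genes were −0.05 and 0.15. With reads across exon junctions alone the members' medians were 0.25 and 0.46, and those of all genes were not computed. The standard deviation of the log2 ratios across members was 0.52 and 0.54, against 1.90 and 2.004 across all genes. The quartiles of all genes were −0.88 and 0.70 in the first comparison and −0.70 and 0.87 in the second. All genes include some with few or no reads in 1 library, and the spread was not compared with genes of like level. Both comparisons share the Adherent library.

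Differentiating and Suspension differed little in these genes. No member was at least 2-fold apart between them, where 9.16% of 10929 genes were at least 2-fold higher in Differentiating and 14.5% lower. A difference of less than 1.5-fold was found for 33 of 34 members, beside 59.2% of all genes. The median log2 ratio of Differentiating over Suspension was −0.13, beside −0.18 for all genes, and 6 members had a ratio above 1, beside 37.6% of all genes. The interval lay below 1 for 19 members, beside 50.4% of all genes. The sign of this median depended on the scaling. It was positive, at most 0.06, with each of the 4 other scalings tried, under which the median of all genes also moved to between −0.03 and 0.01.

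**Figure D2:**
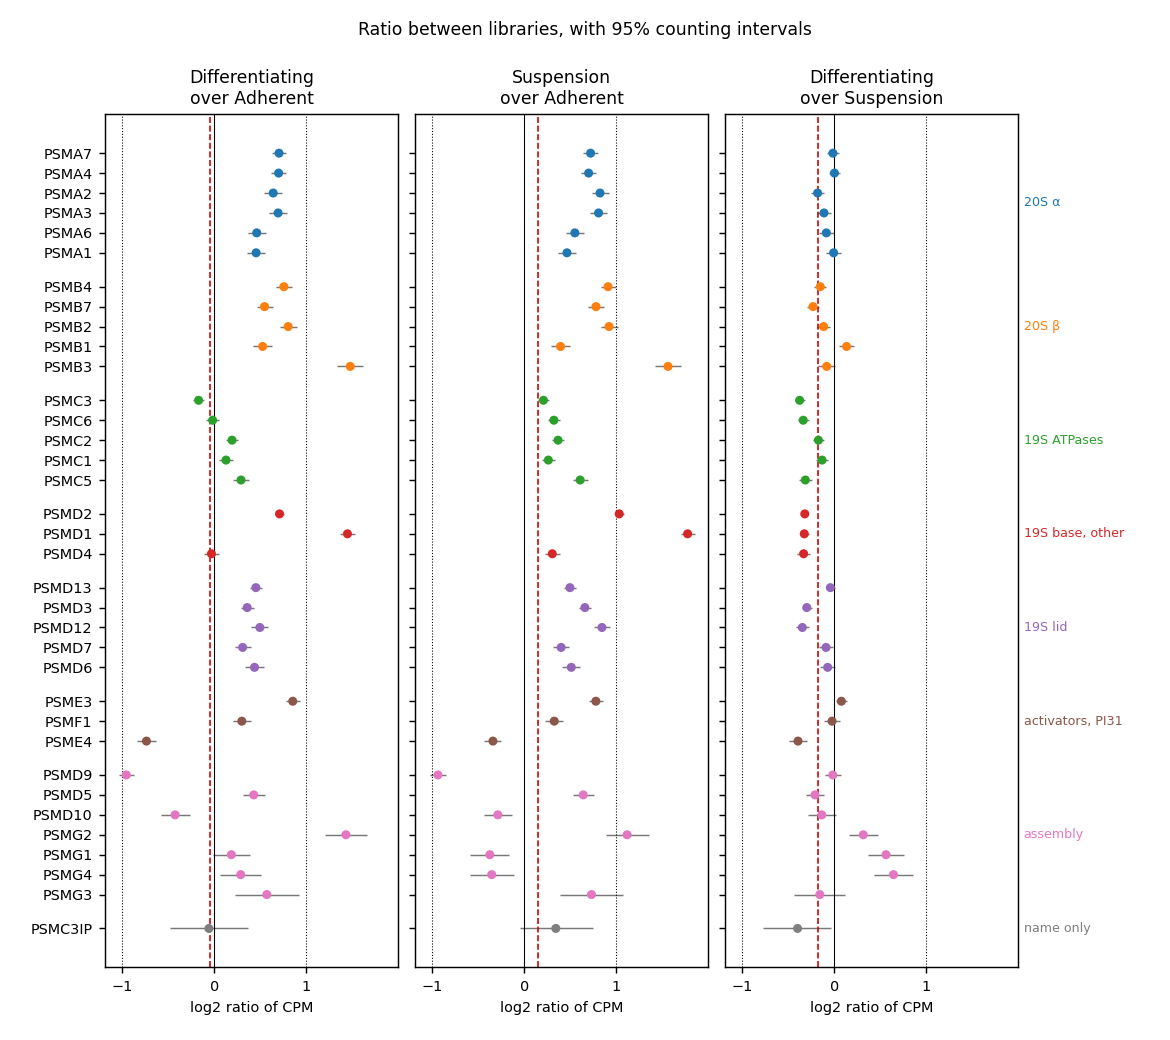
Log2 ratio of CPM for each gene in Differentiating over Adherent, Suspension over Adherent and Differentiating over Suspension, with 95% exact counting intervals (grey bars) and colours by role. The red dashed line is the median of all genes above the minimum (−0.05, 0.15 and −0.18), and dotted lines mark a 2-fold ratio. In the right panel every proteasome gene lies between −0.40 and 0.64.

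The alpha ring forms the gate of the 20S core, and 6 of its genes were in the table. PSMA7 had 183 CPM in Differentiating and 185 in Suspension, against 112 in Adherent. PSMA4 had 167 CPM in both Differentiating and Suspension, against 103 in Adherent. PSMA1, with the smallest differences, had 97.3 and 97.8 CPM, against 71.0. All 6 alpha genes were thus higher in the first 2 libraries than in Adherent, and the intervals of all 12 ratios lay above 1. The log2 ratios ran from 0.45 (PSMA1, 95% interval 0.35 to 0.56) to 0.70 (PSMA7, 0.63 to 0.78) in Differentiating over Adherent and from 0.46 (PSMA1) to 0.82 (PSMA2, 0.73 to 0.92) in Suspension over Adherent. Between Differentiating and Suspension the alpha genes were the most even group of the core, with log2 ratios from −0.18 for PSMA2 to 0.00 for PSMA4. PSMA2, PSMA3 and PSMA6 had 121, 123 and 105 CPM in Differentiating, 137, 133 and 112 in Suspension, and 77.3, 76.2 and 76.3 in Adherent.

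The beta ring carries the proteolytic sites, and PSMB7, the subunit with the trypsin-like site, was the catalytic subunit in the table. PSMB7 had 138 CPM in Differentiating and 163 in Suspension, against 94.8 in Adherent, log2 ratios of 0.55 (95% interval 0.46 to 0.63) and 0.78 (0.70 to 0.86). Genes for the other catalytic subunits, PSMB5 and PSMB6, and for the immunoproteasome subunits PSMB8, PSMB9 and PSMB10 were not analysed here. PSMB3, a beta subunit without a catalytic site, was among the members furthest apart. It had 83.4 CPM in Differentiating and 88.4 in Suspension, against 29.9 (95% interval 27.4 to 32.6) in Adherent, log2 ratios of 1.48 (1.34 to 1.62) and 1.56 (1.42 to 1.70). PSMB3 lies on chromosome 29, 3350446 to 3352892 in the numbering of the table, which names no build, and shares 1602 bases there with RPL23, a ribosomal protein gene with 16958, 9737 and 20176 reads in Differentiating, Suspension and Adherent. Only 70.0%, 70.6% and 64.6% of its exon reads in these libraries were unique to it. With unique reads alone its log2 ratios were 1.59 and 1.69. PSMB2 and PSMB4 followed with log2 ratios of 0.92 and 0.91 in Suspension over Adherent, and PSMB1 had the smallest, at 0.39. PSMB1 was also one of the 2 structural subunits above Suspension in Differentiating, with 101 against 92.1 CPM, a log2 ratio of 0.13 (0.05 to 0.22).

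The ATPases of the 19S base unfold the substrate, and these genes differed least from Adherent of the subunit groups. Their median log2 ratio was 0.13 in Differentiating over Adherent and 0.32 in Suspension over Adherent, against 0.67 and 0.71 for the alpha ring and 0.76 and 0.91 for the beta ring. PSMC3, an ATPase whose tail docks into the core, had 202 CPM in Differentiating and 262 in Suspension, against 227 in Adherent. It was the only structural subunit whose interval lay below 1 in Differentiating over Adherent, with a log2 ratio of −0.17 (95% interval −0.23 to −0.11), while its ratio in Suspension over Adherent was 0.21 (0.15 to 0.27). PSMC6 had 168 and 212 CPM, against 170.0 in Adherent. PSMC5 had the largest ratio of the group, with 129 and 161 CPM, against 106 in Adherent. PSMC1 and PSMC2 lay between these, at 0.26 and 0.37 in Suspension over Adherent. All 5 ATPase genes were lower in Differentiating than in Suspension, with log2 ratios from −0.38 for PSMC3 to −0.13 for PSMC1. The intervals of all 5 lay below 1, beside 50.4% of all genes. These ratios use total exon reads. TMM factors shift every ratio of this comparison upward by the same amount, which moved the median of the members from −0.13 to 0.04. Against Adherent, 21 of the 24 structural subunits had a ratio above 1 in Differentiating with total exon reads, 24 with TMM factors, where the direction of PSMC3 turned, and 23 with each of the other 3 scalings.

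Of the other base genes, both scaffolds were far from Adherent and the ubiquitin receptor was close to it in Differentiating. PSMD1, the scaffold also called Rpn2, had 274 CPM in Differentiating and 344 (95% interval 336 to 351) in Suspension, against 100.4 (95.8 to 105) in Adherent. Its log2 ratios were 1.45 (1.37 to 1.53) and 1.78 (1.70 to 1.85). A level 3.42-fold higher in Suspension was the largest ratio of any member in any comparison. PSMD1 lies on chromosome 11, 14416315 to 14479747 in the table's numbering, and the serotonin receptor gene HTR2B, which shares 10736 bases of that span, had 500 reads in Differentiating and 511 in Suspension, against 59 in Adherent. PSMD2, the scaffold Rpn1 that binds ubiquitin shuttles, was the most abundant member in CPM, with 433 in Differentiating and 541 in Suspension, against 265 in Adherent. Its log2 ratio was 1.03 in Suspension over Adherent, and the interval of 0.98 to 1.08 includes a 2-fold ratio. PSMD4, the ubiquitin receptor Rpn10, had 113 and 143 CPM, against 116 in Adherent, and the interval of its log2 ratio in Differentiating over Adherent, −0.12 to 0.05, includes 0. These 3 genes had nearly equal log2 ratios in Differentiating over Suspension, at −0.33, −0.32 and −0.33.

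The 5 lid genes were all higher in Differentiating and Suspension than in Adherent, by less than 2-fold. PSMD12 had the largest log2 ratio, 0.84 (95% interval 0.76 to 0.93) in Suspension over Adherent, with 119 CPM in Differentiating and 152 in Suspension, against 84.6 in Adherent. Between 61.7% and 65.1% of its exon reads were unique to it, and with unique reads the ratio was 0.91. PSMD7, partner of the lid deubiquitinase, had the smallest, 0.31 in Differentiating and 0.40 in Suspension over Adherent, from 123 and 131 CPM, against 99.2. PSMD3, PSMD6 and PSMD13 had 195, 98.8 and 264 CPM in Differentiating, 241, 104 and 272 in Suspension, and 152, 73.0 and 193 in Adherent. The deubiquitinase gene PSMD14 and the lid genes PSMD8 and PSMD11 were not analysed here.

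Divided by exon length, levels can be compared between subunits. The median of the 24 structural subunits was 111 CPM per kilobase in Differentiating and 129 in Suspension, against 89.5 in Adherent. All 24 lay within 2-fold of the median in Differentiating and in Suspension, and 20 did in Adherent. The standard deviation of the log2 level per kilobase was 0.43 and 0.44, against 0.58 in Adherent, and the highest subunit was 3.04 and 2.85 times the lowest, against 5.26 times. In Adherent the lowest was PSMD1, at 33.5 CPM per kilobase, where it had 91.3 in Differentiating and 115 in Suspension. The highest in Adherent was PSMC3, at 176 CPM per kilobase, beside 156 in Differentiating and 203 in Suspension, where it was also the highest. PSMB4 led Differentiating with 181 CPM per kilobase. The subunits are thus less even in Adherent, and the share of annotated exons that each transcript uses was not measured.

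**Figure D3:**
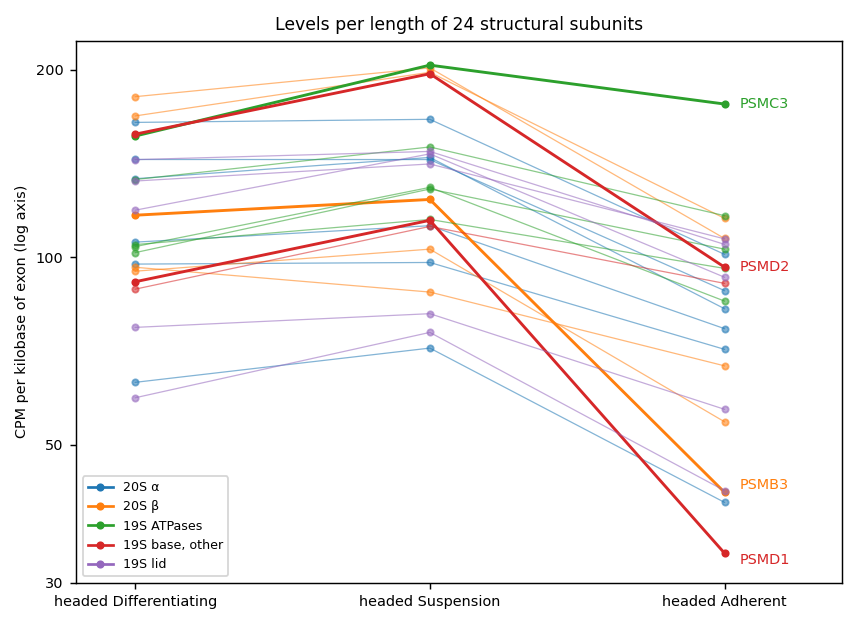
CPM per kilobase of exon (log axis) of the 24 structural subunits in the Differentiating, Suspension and Adherent libraries, 1 line per gene coloured by group, with PSMC3, PSMD2, PSMB3 and PSMD1 in bold. The lines span 59.5 to 181 in Differentiating, 71.4 to 203 in Suspension and 33.5 to 176 in Adherent, where PSMD1 is lowest and PSMC3 highest.

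The activators went different ways. PSME3, which encodes the nuclear activator PA28 gamma, had 211 CPM in Differentiating and 200.2 in Suspension, against 117 in Adherent, log2 ratios of 0.85 (95% interval 0.78 to 0.93) and 0.78 (0.70 to 0.85). From 50.02% in Adherent to 56.0% in Suspension, its exon reads were unique, and with these reads the ratios were 0.99 and 0.94. PSME4, which encodes the activator PA200, had 63.9 and 84.1 CPM, against 107 in Adherent, log2 ratios of −0.74 (−0.84 to −0.64) and −0.34 (−0.43 to −0.25), the reverse of most members. PSMF1, whose product PI31 binds the core and inhibits it in the test tube, had 99.5 and 101 CPM, against 80.9 in Adherent. PSME1 and PSME2, the genes of the other PA28 chains, were not analysed here.

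The assembly factors were more spread than the structural subunits, with a standard deviation of the log2 ratio of 0.76 and 0.75 against Adherent, beside 0.39 and 0.38 for the structural subunits. PSMD9, which holds ATPases of the base during assembly, had 84.98 CPM in Differentiating and 86.0 in Suspension, against 165 (95% interval 159 to 171) in Adherent. Its log2 ratios, −0.96 (−1.04 to −0.87) and −0.94 (−1.02 to −0.86), were the lowest of all members. PSMD10, the base assembly factor gankyrin, had 29.0 and 31.9 CPM, against 39.0 in Adherent, and 62.8% to 65.8% of its exon reads were unique. PSMD5, the third factor of the base, had 68.7 and 79.5 CPM, against 51.0 in Adherent. So PSMD5 followed the subunits, while PSMD9 and PSMD10 were highest in Adherent.

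PSMG1 to PSMG4 help to build the alpha ring, PSMG1 paired with PSMG2 and PSMG3 with PSMG4. PSMG2 had 30.8 CPM in Differentiating and 24.7 in Suspension, against 11.4 (95% interval 9.88 to 13.1) in Adherent, log2 ratios of 1.43 (1.20 to 1.67) and 1.12 (0.88 to 1.36). Its partner PSMG1 had 23.1 and 15.7 CPM, against 20.3 in Adherent, log2 ratios of 0.19 (−0.01 to 0.38) and −0.38 (−0.59 to −0.16). Within the pair, then, Suspension over Adherent was above 1 for PSMG2 and below 1 for PSMG1. PSMG3 had 8.94 and 9.98 CPM, against 6.02 in Adherent, and PSMG4 had 19.4 and 12.4 CPM, against 15.9, with log2 ratios in Suspension over Adherent of 0.73 (0.39 to 1.08) and −0.36 (−0.60 to −0.11). PSMG4 was the member furthest apart between Differentiating and Suspension, with a log2 ratio of 0.64 (0.43 to 0.86), and PSMG1 came next, with 0.56 (0.37 to 0.76). These are low counts, 105 to 702 reads per library.

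Subunits and assembly factors that carry other names were read from a separate list, of which 4 were in the table. POMP, the factor that completes the beta ring, had 99.9 CPM in Differentiating and 102 in Suspension, against 53.1 in Adherent, log2 ratios of 0.91 and 0.94. SEM1, a small lid subunit, had 42.3 and 30.5 CPM, against 22.4. AKIRIN2, which brings proteasomes into the nucleus, was the reverse, with 75.3 and 109 CPM, against 135 in Adherent. PAAF1, which binds the base ATPases, had 32.8 and 37.7 CPM, against 32.0. Of the 4, none was 2-fold apart in any comparison. SEM1 (0.92), POMP (0.91) and AKIRIN2 (−0.85) came near that limit in Differentiating over Adherent, and POMP (0.94) in Suspension over Adherent. Beyond that limit lay 18.3% (upward) and 22.7% (downward) of all genes in Differentiating over Adherent. The matching shares were 21.6% and 20% in Suspension over Adherent, and 9.16% and 14.5% in Differentiating over Suspension. With only 4 genes, whether their count differs from these shares was not tested.

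Of the listed enzymes and other proteins that sit on the particle, 7 were in the table. All 7 had a ratio above 1 in Suspension over Adherent, as did 55.6% of all genes, and 3 were at least 2-fold higher, as were 21.6%, with a median log2 ratio of 0.94. The interval of UBE3C, a ligase of the particle, was −0.03 to 0.27 and includes 0. In Differentiating over Adherent, 2 of the 7 were at least 2-fold higher and none lower, beside 18.3% and 22.7% of all genes. USP14, the deubiquitinase of the cap, had 93.3 CPM in Differentiating and 107 in Suspension, against 53.3 in Adherent. UBLCP1, a nuclear phosphatase of the proteasome, had 36.6 and 38.9 CPM, against 16.9, and TXNL1, a thioredoxin-like protein of the cap, 89.5 and 78.4 CPM, against 40.9. KIAA0368, also called ECPAS, a scaffold that holds core and cap together, was highest in Suspension. It had 84.0 CPM in Differentiating and 194 in Suspension, against 68.7 in Adherent. KIAA0368 was the 1 gene of this list at least 2-fold lower in Differentiating than in Suspension, as were 14.5% of all genes.

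VCP, the segregase that pulls ubiquitinated proteins out of complexes ahead of the proteasome, did not follow the subunits. It had 333 CPM in Differentiating and 50.5 in Suspension, against 140 in Adherent, log2 ratios of 1.25 and −1.47, and 2.72 in Differentiating over Suspension. Its cofactor NPLOC4 had 228 and 420 CPM, against 223 in Adherent, and UBXN4, a membrane anchor of VCP, 235 and 496 CPM, against 197. Over the 13 genes of this list the median log2 ratio was 0.36 in Differentiating over Adherent and 0.42 in Suspension over Adherent. In these comparisons 1 and 2 genes were at least 2-fold higher, beside 18.3% and 21.6% of all genes. None and 1 were at least 2-fold lower, beside 22.7% and 20%. Of 4 ubiquitin shuttle genes, ZFAND2A, an arsenite-inducible gene, was at least 2-fold higher in Differentiating than in Adherent and than in Suspension. It had 32.3 CPM in Differentiating, beside 13.3 in Suspension and 14.5 in Adherent. Of all genes, 18.3% and 9.16% were as far up in these comparisons. ZFAND2A was the 1 shuttle gene above 1 in Differentiating over Adherent, as were 48.1% of all genes, and the median log2 ratio of the 4 was −0.17. ZFAND2B had 12.8 CPM in Differentiating and 13.9 in Suspension, against 24.4 in Adherent. RAD23B had 57.7 and 82.3 CPM, against 70.7.

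The regulators NFE2L1 and NFE2L2 went opposite ways. NFE2L1, which is known to drive subunit genes when the proteasome is impaired, had 207 CPM in Differentiating and 404 in Suspension, against 160.0 in Adherent, log2 ratios of 0.37 and 1.34. NFE2L2, the oxidative stress factor, named after its values were seen, had 135 and 144 CPM, against 264 in Adherent. BACH1, a repressor at the same sites, had 77.3 and 83.7 CPM, against 437, and SQSTM1, a ubiquitin-binding autophagy receptor, 87.2 and 75.9 CPM, against 227. The small MAF partner MAFF had 136 and 160 CPM, against 473, and MAFK 212 and 274 CPM, against 486. Of these 8 genes, 5 were at least 2-fold lower and none higher in Differentiating over Adherent, and 3 were lower and 1 higher in Suspension over Adherent, with medians of −1.29 and −0.93. Of all genes, 22.7% and 20% were at least 2-fold lower in these comparisons, and 18.3% and 21.6% at least 2-fold higher. The 7 genes of this list other than NFE2L1 had their highest level in Adherent, as did 38.5% of all genes above the minimum. NGLY1 differed least of the 7, with 38.7 and 39.1 CPM, against 47.9 in Adherent.

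Other large protein complexes gave a mixed picture beside the proteasome. The 6 genes of the CCT chaperonin, which folds actin and tubulin, had medians of 0.28 in Differentiating over Adherent and 0.53 in Suspension over Adherent, with CCT8 the furthest at 1.23 in the second. The 7 genes of the COP9 signalosome, a relative of the lid, had medians of 0.44 and 0.47, with COPS7B at 1.06 and 1.27. The 10 genes of the translation factor eIF3, whose subunits are also related to those of the lid, had medians of −0.71 and −0.97. Of these 10, 2 and 5 were at least 2-fold lower, beside 22.7% and 20% of all genes. EIF3E had 428 CPM in Differentiating and 274 in Suspension, against 826 in Adherent. The medians of CCT and COP9 genes thus lay on the same side as those of the proteasome and that of eIF3 on the other. No test sets these lists apart. In Differentiating and Suspension over Adherent, the standard deviation of the log2 ratios was 0.33 and 0.36 for CCT and 0.39 and 0.56 for COP9. For eIF3 it was 0.43 and 0.65, and for the 34 proteasome members 0.52 and 0.54.

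**Figure D4:**
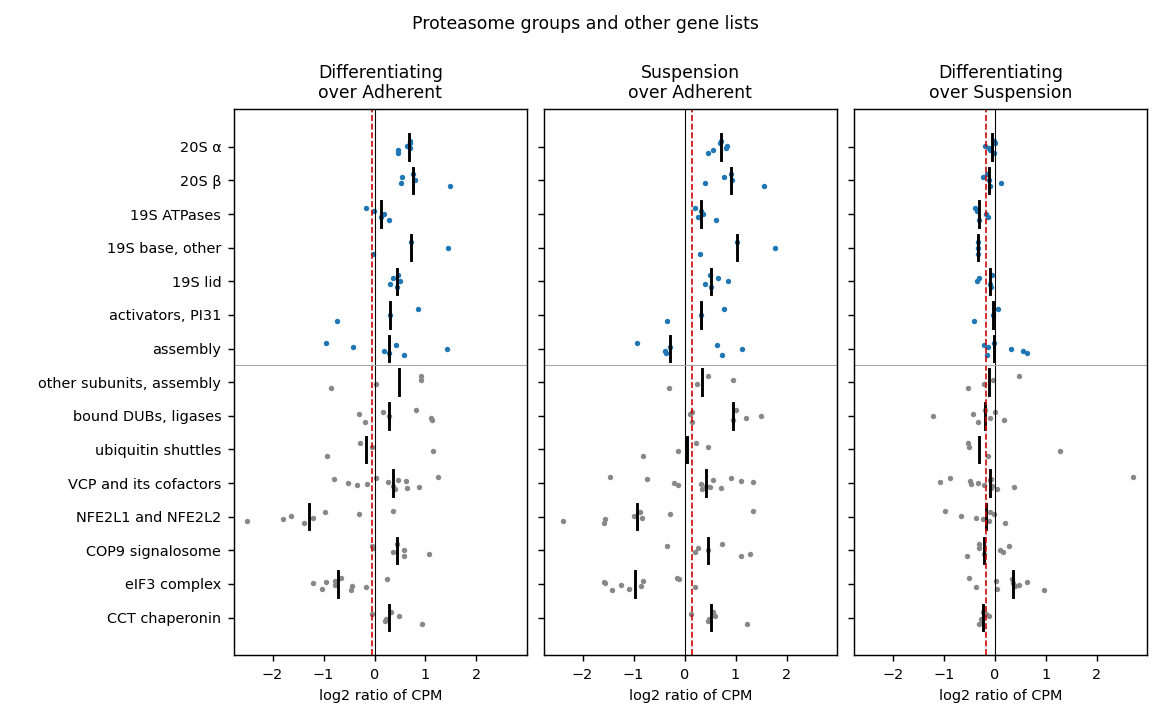
Log2 ratio of CPM of each gene (points) and the median (black bars) for the groups of proteasome genes (blue, above the line) and the other gene lists (grey), in Differentiating over Adherent, Suspension over Adherent and Differentiating over Suspension. The red dashed line is the median of all genes above the minimum. The medians of the core rings lie at 0.67 to 0.91 in the first 2 panels, and that of eIF3 at −0.71 and −0.97.

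Intron reads gave a readout that the exon counts did not use. They made up a median of 3.91% of the gene reads of the 34 members in Differentiating and 3.33% in Suspension, against 12.6% in Adherent. The medians of all genes above the minimum with an intron read were 6.395%, 6.407% and 13.7%. The share was highest in Adherent for 32 of the 34 members, and for 77.6% of all these genes. PSMB1 had 11.8% and 13.0%, against 39.6% in Adherent, and PSMD6 3.63% and 3.43%, against 20.6%. PSMD2 had 1.01% and 0.66%, against 6.71%. The exceptions were PSMG4, with 55.1% in both Differentiating and Suspension, against 37.8% in Adherent, and PSMD5, with 2.31% and 0.84%, against 1.66%. When intron reads were counted with exon reads, 3 and 5 members were at least 2-fold higher in Differentiating and in Suspension than in Adherent. With exon reads alone 3 and 4 were, beside 18.3% and 21.6% of all genes. The shares of all genes with intron reads included were not computed. With reads across exon junctions, a setting added after the intron shares were seen, the first of the members' medians, 0.25, was the one furthest from its value with all exon reads. Here reads were scaled to the junction reads of the whole library, a total that shifts all members alike. For most members the share of exon reads across a junction was higher in Differentiating than in Adherent, as for PSMA2 (62.3% against 58.2%). It was lower for others, as for PSMA7 (65.5% against 67.2%). The part of unspliced RNA in the exon counts was not tested further.

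**Figure D5:**
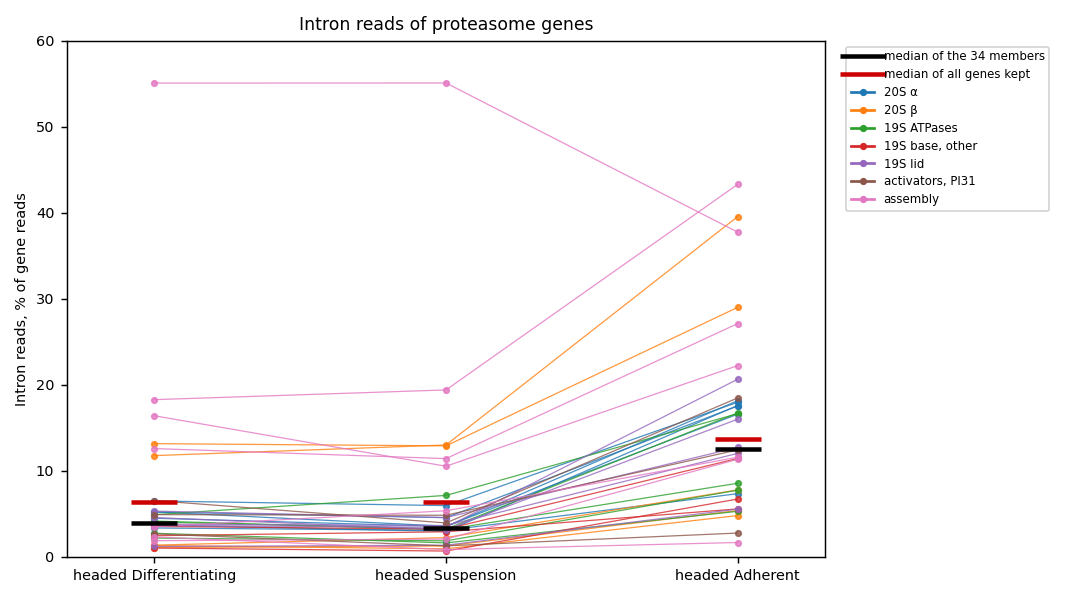
Intron reads as a percentage of gene reads for each of the 34 proteasome genes in the Differentiating, Suspension and Adherent libraries, 1 line per gene coloured by role, with the median of the members (black bars) and of all genes kept (red bars). The members' medians are 3.91%, 3.33% and 12.6%, and the line that starts at 55.1% is PSMG4.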

How the data were processed

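The authors pooled RNA of 3 experiments per group. Their methods and processing notes name bcl2fastq 2.20, Skewer, STAR 2.5.2b with a turkey genome from Ensembl, featureCounts and NOISeq. No source used here says whether the deposited table was made that way. The deposited counts are whole reads on exons, junctions, introns and genes, unscaled by the authors, who also gave exon lengths in bases. The fold-change scores the authors deposited are signed ratios of raw reads and served only to check the headings. The other 27 per-library columns of the table, RPKM among them, were not used here.

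Each exon count was scaled to the exon reads of its library (CPM), in Python 3.11.15 (numpy 2.4.6; pandas 2.3.3) with intervals from scipy 1.17.1. Genes with at least 5 CPM in 1 library were compared, without a pseudocount. A floor of 3 counts replaced a 0, and pairs at or under it got no ratio. Intervals are exact at 95% (Poisson for levels, Clopper-Pearson for ratios) and cover counting error only. Calls and intervals were tested on simulated data. TMM factors came from edgeR 4.0.16. Other scalings, read types, limits and exchanged headings were tried as alternatives.

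Members and lists were chosen with earlier results of these data known. Named were members at least 2-fold apart, the extremes of each role, PSMB7, all activators and assembly factors, and up to 6 genes per list. Symbols of all 35 members are also in the RefSeq table of Turkey_5.1, and no genome or sequence was used here.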

Additional observations from a re-analysis of the deposited data

How the results depend on the processing

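With the headings Suspension and Adherent exchanged, the median log2 ratio of the members was −0.13 in Differentiating over Adherent, −0.58 in Suspension over Adherent and 0.45 in Differentiating over Suspension, and the members at least 2-fold higher numbered 0, 0 and 3, with 4 lower in the second. In Differentiating over Suspension the median turned to 0.044 with TMM, 0.060 with median-of-ratios, 0.037 with upper quartile scaling and 0.021 with totals that leave out the 10 most abundant genes. In Differentiating over Adherent it was 0.64 with TMM, 0.61 with median-of-ratios and 0.57 without those genes, and in Suspension over Adherent 0.49 with upper quartile scaling, where 1 member was at least 2-fold lower. Each scaling shifts the log2 ratios of all genes in a comparison by the same amount. The distance of the members' median from that of all genes, 0.50, 0.43 and 0.05, is therefore fixed by construction and tests nothing. At a limit of 1.5-fold, 11 members were higher and 2 lower in Differentiating over Adherent, 17 higher and 1 lower in Suspension over Adherent, and 1 higher in Differentiating over Suspension. With the interval wholly beyond 2-fold, 2 members were higher in Suspension over Adherent. Junction reads were scaled to their own total in each library. With them the medians were 0.25, 0.46 and −0.26, and 1 member was at least 2-fold lower in Differentiating over Adherent. A pseudocount of 1 CPM, no filter, whole-gene reads, unique reads, the structural subunits alone and PSMC3IP counted with the rest left every median within the tolerance of its counting error and every count within 1.5-fold. Unique and junction reads and PSMC3IP were chosen after the data were seen. No paired analysis was possible because each group is 1 library. For the same reason no replicate could be left out, and the spread between cultures is unknown. Depth limits mainly PSMG3, with 105 reads in Adherent.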

Other observations

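PSMC3IP, which matches the symbol pattern but encodes a partner of the meiotic recombination machinery, had 4.73 CPM in Differentiating and 6.25 in Suspension, against 4.93 in Adherent, and the interval of its log2 ratio in Suspension over Adherent, −0.05 to 0.74, includes 0. It shares 338 bases of its span with MLX, and 54.8% of its gene reads in Differentiating and 60.1% in Suspension, against 63.7% in Adherent, were intron reads.

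The members lie on 18 chromosomes of the table. Chromosome 5 holds 7 of them (PSMA1, PSMA3, PSMA6, PSMC1, PSMC3, PSMC6 and PSMD13) and chromosome 29 holds 5 (PSMB3, PSMC3IP, PSMC5, PSMD3 and PSME3). On chromosome 5 all 7 had a log2 ratio in Suspension over Adherent between 0.21 (PSMC3) and 0.81 (PSMA3). PSMD1 and PSMD2, the members furthest apart in CPM between Suspension and Adherent, both lie on chromosome 11, at 14416315 to 14479747 and at 15171313 to 15176846 in the table's numbering.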
